A study of Mus musculus with 9 samples.

Results

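The enzyme genes of glycolysis described here were Hk1, Hk2, Gpi1, Aldoa, Tpi1, Pgk1, Eno1 and Pkm, together with Ldha, which acts after them, and Eno1b, a near-identical copy of Eno1. They were chosen by gene symbol, and all 10 have a row in the deposited table of 13336 genes. The table holds RNA sequencing of sorted mouse cells that had been expanded in culture from tracheal glands and that the labels call myoepithelial, the contractile basal cells that wrap airway glands. The labels name 5 libraries Lef1KI and 4 WT. The Lef1KI mice were ACTA2-CreERT2:Lef-1KI+/+ and the WT mice were ACTA2-CreERT2:ROSA-TG, so both groups carried a tamoxifen-activated Cre recombinase under the promoter of smooth muscle actin. Both were given tamoxifen daily over 5 days, after which the airways were harvested. Each library came from cells pooled over 3 to 5 mice and grown to passage 1 in modified SAGM, an airway epithelial medium. Both groups had 10 µM Y-27632 and 1 µM each of DMH-1, A83-01 and CHIR 99021 in that medium, on plastic coated with laminin-rich medium of 804G cells. GFP- cells were collected from Lef1KI cultures and GFP+ cells from WT cultures, so the sort gate and the genotype change together and cannot be told apart. The sources used here do not give the mice's ages or genetic background.

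Glycolysis splits glucose into pyruvate through a chain of cytosolic enzymes. Hexokinases (Hk1, Hk2) trap glucose as a phosphate, and glucose-6-phosphate isomerase (Gpi1), aldolase (Aldoa) and triosephosphate isomerase (Tpi1) turn it into triose phosphates. Phosphoglycerate kinase (Pgk1) and pyruvate kinase (Pkm) each make ATP, with enolase (Eno1) between them, and Ldha turns pyruvate into lactate. Several of these genes are textbook targets of the hypoxia-inducible factors, which bind DNA at sites with the core ACGTG or GCGTG. Genes of this abundance have often left retrocopies in the genome, made when their mRNA was copied back into DNA, and such a copy can share sequencing reads with its parent.

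Values are TPM, a transcript count scaled to a fixed total per library, which corrects for transcript length and for library size. Each difference is the Lef1KI mean less the WT mean of log2(TPM + 1), a scale that compresses changes close to 0 TPM. It was tested with limma across all 13336 genes, and the words rose and fell are kept for a Benjamini-Hochberg adjusted p under 0.05. Lef1, the knocked-in gene, stood between 139 and 312 TPM in the Lef1KI libraries and between 0.38 and 0.55 TPM in the WT libraries. The basal and myoepithelial markers Krt14 (5815 to 7715 TPM over the 9 libraries), Krt5 (5308 to 10539.9 TPM) and Trp63 (92.5 to 124 TPM) were high in every library. The contractile marker Acta2, whose promoter drives the Cre, averaged 62.3 ± 31.2 TPM in Lef1KI cells (SD, n = 5) and 129 ± 41.0 TPM in WT cells (SD, n = 4), a log2 difference of −1.13 (95% interval −1.92 to −0.34) that did not pass the limma test (adjusted p = 0.0834). The groups overlapped. Smooth muscle myosin Myh11 lay between 0.27 and 2.12 TPM, and Cnn1 has no row in the table used here. Fibroblast and stromal markers differed between the groups: 15 of 16 rose and none fell, against 6.73% and 1.24% of all genes. They summed to between 1622 and 4577 TPM in Lef1KI libraries, against 404 to 1087 TPM in WT libraries. None of the 16 stood at 0 in any library. In bulk RNA, a change in the number of cells of a type and a change in RNA per cell cannot be told apart.

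Of the 10 genes, Eno1b fell in Lef1KI cells and the other 9 did not pass the test. Among all genes 7.97% passed it, 6.73% higher and 1.24% lower in Lef1KI. Eno1b was also the one gene of the 10 whose groups did not overlap, against 11.9% of all genes. It entered the table through a filter on spread that it met only in WT cells, where it is high, as described below. Neither result is independent of that filter. The 9 enzyme genes without Eno1b had a median difference of 0.14, next to 0.14 over all genes, and 6 of the 9 differences were above 0 and 3 below. None of the 9 had an unadjusted p under 0.05, against 23.8% of all genes. Their levels did vary between libraries, and most of them varied together, as described below.

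Promoters of 4 genes are shown first, because the genes that varied together and the one that tended the other way can be compared in them. Each is the 250 bases before a gene's start in RefSeq (GRCm38.p6), read 5′ to 3′ on the gene's strand, with matches to ACGTG on either strand (CACGT on the strand shown) in capitals.
Ldha (chr7:46845554-46845803, plus strand): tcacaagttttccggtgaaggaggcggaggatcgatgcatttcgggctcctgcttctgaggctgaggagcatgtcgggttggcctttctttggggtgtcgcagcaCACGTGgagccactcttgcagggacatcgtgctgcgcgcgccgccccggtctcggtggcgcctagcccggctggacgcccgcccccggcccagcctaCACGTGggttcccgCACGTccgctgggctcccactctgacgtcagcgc
Pgk1 (chrX:106186850-106187099, plus strand): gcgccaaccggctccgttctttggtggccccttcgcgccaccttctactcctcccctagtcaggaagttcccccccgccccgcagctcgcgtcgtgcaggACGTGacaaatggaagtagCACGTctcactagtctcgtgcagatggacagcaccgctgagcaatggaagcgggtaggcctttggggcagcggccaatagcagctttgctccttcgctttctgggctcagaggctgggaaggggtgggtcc
Hk2 (chr6:82774455-82774704, minus strand): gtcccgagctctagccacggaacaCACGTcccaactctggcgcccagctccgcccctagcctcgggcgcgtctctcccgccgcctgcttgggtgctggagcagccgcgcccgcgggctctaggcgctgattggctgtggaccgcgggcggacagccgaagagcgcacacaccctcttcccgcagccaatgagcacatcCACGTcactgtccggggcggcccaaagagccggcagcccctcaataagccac
Tpi1 (chr6:124814159-124814408, minus strand): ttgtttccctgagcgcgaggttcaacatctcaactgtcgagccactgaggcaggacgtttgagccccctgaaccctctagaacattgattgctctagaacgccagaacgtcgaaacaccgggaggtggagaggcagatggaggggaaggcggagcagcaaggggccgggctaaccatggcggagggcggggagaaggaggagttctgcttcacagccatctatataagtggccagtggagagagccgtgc
The Ldha window, before one of 2 RefSeq starts of that gene, held 5 matches in 3 stretches, since a CACGTG counts as a match on each strand. The window before its other start (chr7:46846832-46847081) held no ACGTG and 1 GCGTG. Pgk1 and Hk2 held 2 matches each and Tpi1 held 0. Over 32851 windows of this length 16.6% held ACGTG, 28.2% held GCGTG and 38.6% held either. Taken by gene, 5 of the 9 enzyme genes with a window (Hk2, Aldoa, Pgk1, Pkm and Ldha) had ACGTG in at least 1 of their windows, against 18.5% of 27025 genes. Of the 6 genes described below as varying together, 4 had ACGTG (Ldha, Pgk1, Aldoa and Pkm) and Eno1 and Tpi1 did not, and of the other 3 it was found in Hk2 and not in Hk1 or Gpi1. The other core, GCGTG, was found in each window of Eno1 (1, 2 and 2 matches), in a window of Hk1 (3 matches) and in the other Ldha window named above. No window of the remaining genes held it. Aldoa and Eno1 have 3 windows, Hk1, Pkm and Ldha 2, and the others 1. A gene with more windows has more room for a match, so the comparison by gene is not a matched one. A match is a run of letters, and binding was not measured.

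Enolase had the one called difference, and it lay in a copy. Eno1 (ENSMUSG00000063524, mm10, plus strand of chromosome 4 from 150236721 to 150248879) has 12 exons, whereas Eno1b (ENSMUSG00000059040, chromosome 18 from 48045335 to 48048412 on the plus strand) has 2 and is tagged as a retrogene in GENCODE M21, although it is annotated as protein coding. Their coding sequences are 1302 bases long each and differ at 8 bases, an identity of 99.39%, with an identical run of up to 725 bases. Of all windows of 100 bases in the coding sequence 68.6% were identical between them, so many reads of one would fit the other. The sources used here give no read length; for windows of 50 and 150 bases that share was 80.7% and 58.5%.

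Eno1b stood at 0.21, 0.09, 0.21, 0.15 and 0.08 TPM in Lef1KI libraries A to E, against 7.35, 68.5, 43.9 and 69.3 TPM in WT libraries A, B, D and E. The Lef1KI libraries were all near 0, and the groups did not overlap, with WT library A well below the other WT libraries. Eno1b thus averaged 0.148 ± 0.0626 TPM in Lef1KI cells (SD, n = 5) and 47.3 ± 29.1 TPM in WT cells (SD, n = 4). The difference was −5.00 log2 units (SE 0.53, 95% interval −6.17 to −3.83, limma adjusted p = 0.000582), and the call held when any 1 of the 9 libraries was left out. The size depends on the pseudocount, at −7.19 with 0.1 TPM and −3.05 with 5 TPM in place of 1 TPM. As read from the values, every gene in the table had a mean log2 value of at least 3 SD in 1 group or both. Eno1b met that in WT cells (3.57 SD) and not in Lef1KI cells (2.50 SD), whereas the other 9 genes met it in both. Eno1b thus entered the table only through WT cells, where it is high, so its test is not independent of that filter.

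Eno1 itself was abundant in every library. It stood at 435, 679.7, 967, 411 and 1266 TPM in Lef1KI libraries A to E, against 738, 484, 432 and 411 TPM in WT libraries A, B, D and E. All WT libraries lay inside the Lef1KI range, with the highest values in Lef1KI libraries E and C. Eno1 averaged 752 ± 365 TPM in Lef1KI cells (SD, n = 5) and 516 ± 151 TPM in WT cells (SD, n = 4), a log2 difference of 0.44 (SE 0.328, 95% interval −0.28 to 1.17, limma adjusted p = 0.424).

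Because reads can be divided between the genes in more than one way, the copies were added to their parent. Eno1 and Eno1b together came to 435, 679.8, 967, 411 and 1266 TPM in Lef1KI libraries A to E, against 746, 553, 475 and 481 TPM in WT libraries A, B, D and E. The sums overlapped: Lef1KI libraries A and D were the lowest of the 9 and C and E the highest. The sum averaged 752 ± 365 TPM in Lef1KI cells (SD, n = 5) and 564 ± 126 TPM in WT cells (SD, n = 4), a log2 difference of 0.30 (95% interval −0.40 to 1.00, limma adjusted p = 0.579). An exact two-sided permutation test over the libraries gave p = 0.452, where the smallest possible is 0.00794.

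The share of Eno1b in that sum separated the groups. It was between 0.00632% and 0.0482% in the 5 Lef1KI libraries, against 0.986%, 12.4%, 9.24% and 14.4% in WT libraries A, B, D and E. All WT libraries lay above all Lef1KI libraries, WT library A by the smallest margin. The mean share was 0.0252 ± 0.0171% in Lef1KI cells (SD, n = 5) and 9.26 ± 5.91% in WT cells (SD, n = 4), a difference of −9.23 percentage points. The exact two-sided permutation test gave p = 0.00794, the smallest that 5 against 4 libraries allow. That value follows from the lack of overlap already seen in Eno1b, so it adds no separate support.

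A further copy of Eno1 was also near 0 in Lef1KI cells and present in WT cells. A search of GENCODE M21 transcripts for near-identical genes (at least 90% identity over at least 50% of the shorter transcript) found 7 for Eno1, of which the table holds Eno1b and Gm4735. Gm4735 (chromosome 2 from 80837141 to 80838442 on the plus strand) is a processed pseudogene that matched Eno1 at 99.62% and Eno1b at 99.77% over 1302 bases. It was singled out after its values could be seen, so its difference is given as a description with no test. Gm4735 stood at 0, 0.14, 0, 0 and 0.29 TPM in Lef1KI libraries A to E, against 12.7, 102, 65.5 and 107 TPM in WT libraries A, B, D and E. As with Eno1b, the groups did not overlap and WT library A was the lowest of its group. The log2 difference was −5.71, and Gm4735 too met the 3 SD filter in WT cells and not in Lef1KI cells.

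Within WT cells the 2 copies kept a steady ratio. Eno1b made up 36.7%, 40.2%, 40.1% and 39.2% of Eno1b plus Gm4735 in WT libraries A, B, D and E, a mean of 39.1 ± 1.62% (SD, n = 4). Both copies together took between 0.0217% and 0.0482% of the 3-gene total in Lef1KI libraries, against 2.64%, 26.0%, 20.2% and 30.05% in WT libraries A, B, D and E. The groups did not overlap, and the difference in mean share was −19.7 percentage points. With all 3 genes added, enolase 1 averaged 752 ± 365 TPM in Lef1KI cells (SD, n = 5) and 636 ± 94.3 TPM in WT cells (SD, n = 4). The log2 difference of this total was 0.12 (95% interval −0.56 to 0.80, limma adjusted p = 0.841), and its sign turned under other scalings. How reads were divided among these genes was not tested. The genetic background of either line is unknown here, so a difference in background and the genotype cannot be told apart at these copies. The fibroblast and stromal markers differed between the same groups, and their part in the low values of Eno1b and Gm4735 was not tested.

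**Figure D1:**
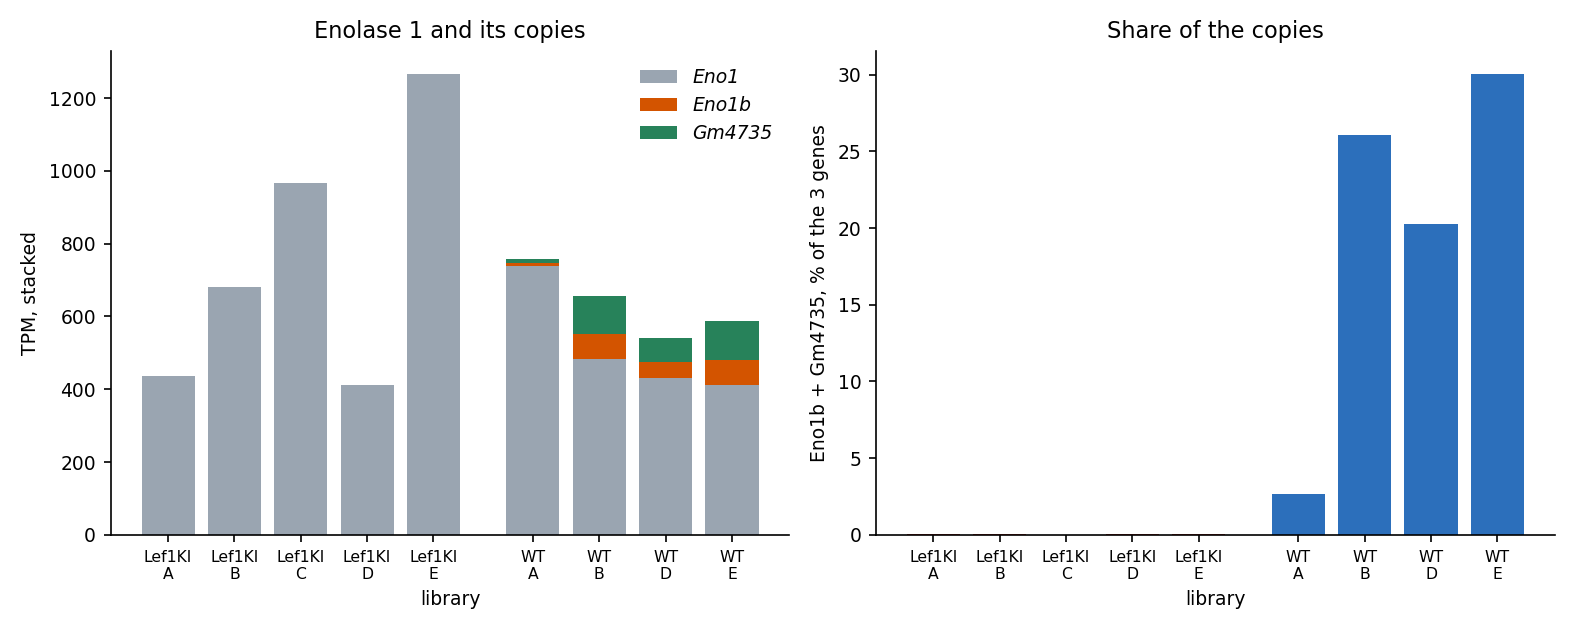
Left, TPM of Eno1, Eno1b and Gm4735 stacked by library, with Lef1KI libraries A to E left of WT libraries A, B, D and E; right, Eno1b plus Gm4735 as a percentage of the 3 genes. The copies reach at most 0.0482% in a Lef1KI library and 2.64% to 30.05% in WT libraries, while the stacked totals of the groups overlap.

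By likeness over the 9 libraries, the gene closest to Eno1b was Gm4735, with a Pearson correlation of 0.997, and 9 of the 10 closest were gene models without a descriptive symbol. Among genes with such a symbol the closest were Mfge8 (0.977), Blvrb (0.947), Tns4 (0.944), Trank1 (0.941) and Pcsk2 (0.940). Eno1b separates the groups, so a correlation over all libraries partly restates that gap, and no test is given. With each group's mean removed the correlation was 0.981 for Gm4735, 0.972 for Tns4, 0.93 for Mfge8, 0.697 for Pcsk2, 0.432 for Blvrb and −0.018 for Trank1. With group means removed, likeness was thus high for Gm4735, Tns4 and Mfge8, and absent for Trank1. Eno1b hardly varied among the Lef1KI libraries (0.08 to 0.21 TPM), so these values rest on the WT libraries. Chief among those is WT library A (7.35 TPM, against 43.9 to 69.3 TPM in the other WT libraries). Likeness within Lef1KI cells was not shown. The log2 differences of these genes, chosen for their likeness to Eno1b, were −0.47 for Mfge8, a secreted glycoprotein that tags dying cells for uptake, and −0.72 for Blvrb, a biliverdin and flavin reductase. They were −1.11 for Tns4, a focal adhesion protein, −0.14 for Trank1 and −0.04 for Pcsk2, a prohormone convertase.

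Hexokinase RNA was split between 2 genes, and neither passed the test. Hk1 (chromosome 10 from 62268855 to 62379908 on the minus strand) encodes the widely expressed form that binds mitochondria. It stood at 60.5, 69.2, 64.2, 59.95 and 63.6 TPM in Lef1KI libraries A to E, against 54.45, 73.6, 67.5 and 67.4 TPM in WT libraries A, B, D and E. All Lef1KI libraries lay inside the WT range. It differed by −0.04 log2 units (95% interval −0.28 to 0.20, limma adjusted p = 0.833), and the spread within groups was small, at the 10.6 percentile of all genes.

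Hk2 (chromosome 6 from 82725025 to 82774454 on the minus strand) is the inducible hexokinase of muscle, fat and many tumours. It stood at 179.6, 101.6, 64.1, 72.7 and 67.8 TPM in Lef1KI libraries A to E, against 65.9, 124.8, 82.9 and 130.1 TPM in WT libraries A, B, D and E. Lef1KI library A was the highest of all 9, and the other Lef1KI libraries overlapped the WT libraries. The log2 difference was −0.11 (95% interval −0.80 to 0.57, limma adjusted p = 0.846), with a spread at the 93.5 percentile. The share of Hk2 in Hk1 plus Hk2 was 58.1 ± 10.0% in Lef1KI cells (SD, n = 5) and 59.7 ± 5.6% in WT cells (SD, n = 4; exact two-sided permutation test, p = 0.825).

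Gpi1, the isomerase that turns glucose 6-phosphate into fructose 6-phosphate, was the steadiest of the 10. The gene (chromosome 7 from 34201330 to 34230336 on the minus strand) stood at 520.4, 519.55, 490.5, 433.7 and 490.2 TPM in Lef1KI libraries A to E, against 561, 518, 483 and 491 TPM in WT libraries A, B, D and E. The groups overlapped, with Lef1KI library D lowest and WT library A highest. It differed by −0.07 log2 units (95% interval −0.27 to 0.14, limma adjusted p = 0.694), and its spread within groups stood at the 4.4 percentile of all genes.

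Aldolase and triosephosphate isomerase, which make and interconvert the triose phosphates, varied more. Aldoa (chromosome 7 from 126795234 to 126800751 on the minus strand) stood at 1111, 1418, 1610.0, 1086 and 1693 TPM in Lef1KI libraries A to E, against 1599.9, 1189.8, 1126 and 1100.1 TPM in WT libraries A, B, D and E. Tpi1 (chromosome 6 from 124810586 to 124814296 on the minus strand) stood at 227, 359.7, 545, 246 and 574 TPM in Lef1KI libraries A to E, against 432, 268, 249.8 and 243 TPM in WT libraries A, B, D and E. In both genes Lef1KI libraries C and E were high and A and D low, while WT library A stood above the other WT libraries, and the groups overlapped. Aldoa differed by 0.13 log2 units (95% interval −0.24 to 0.51, limma adjusted p = 0.649). Tpi1 differed by 0.33 (95% interval −0.33 to 0.98, limma adjusted p = 0.520).

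**Figure D2:**
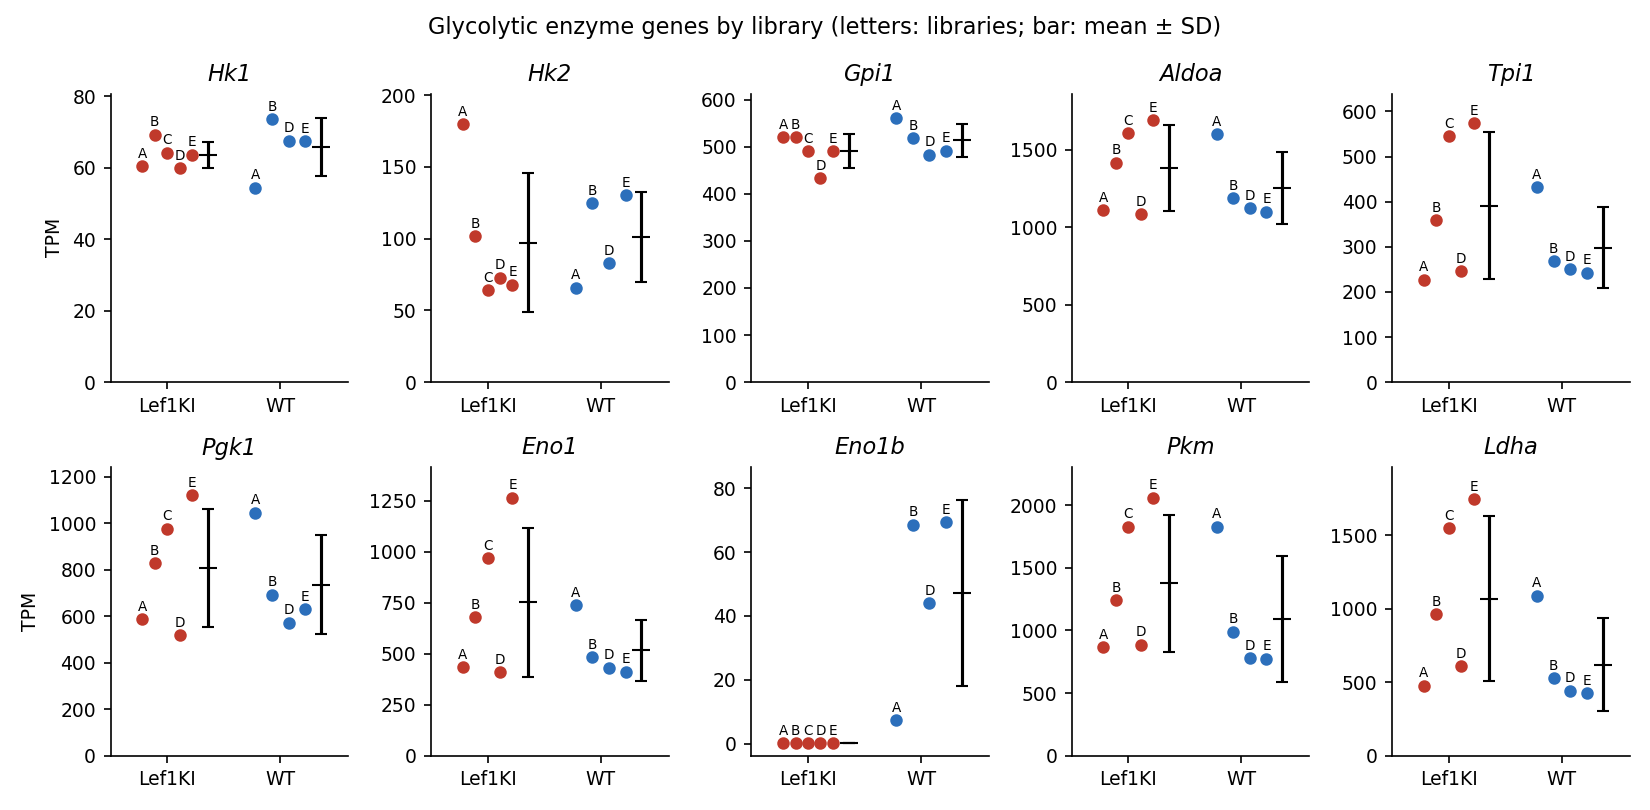
TPM of the 10 genes in each library (points with the library's letter), Lef1KI in red left of WT in blue, with mean ± SD to the right of each group (n = 5 and 4); axes differ between panels. Eno1b is the one panel in which the groups do not overlap, at 0.08 to 0.21 TPM in Lef1KI libraries and 7.35 to 69.3 TPM in WT libraries.

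The ATP-making steps gave the same picture. Pgk1 (chromosome X from 106187100 to 106203699 on the plus strand) stood at 587, 829, 977, 519.8 and 1119.9 TPM in Lef1KI libraries A to E, against 1045, 693, 572 and 629 TPM in WT libraries A, B, D and E. Pkm (chromosome 9 from 59656368 to 59679375 on the plus strand) stood at 864, 1240.5, 1828, 885 and 2059.7 TPM in Lef1KI libraries A to E, against 1828, 990.5, 776 and 773 TPM in WT libraries A, B, D and E. Again Lef1KI libraries C and E and WT library A were high, and the groups overlapped. Pgk1 differed by 0.11 log2 units (95% interval −0.43 to 0.66, limma adjusted p = 0.80). Pkm differed by 0.34 (95% interval −0.38 to 1.05, limma adjusted p = 0.542). Pkm gives a muscle-type and a fetal-type isoform by splicing, which gene-level values do not separate.

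Pgk1 also has a copy in the table, and that copy did not separate the groups. Gm5537 (chromosome 3 from 58102996 to 58104247 on the minus strand) is a processed pseudogene identical to Pgk1 over 1252 aligned bases. It had 285 ± 85.6 TPM in Lef1KI cells (SD, n = 5) and 231 ± 41.2 TPM in WT cells (SD, n = 4), a log2 difference of 0.26 (limma adjusted p = 0.481). Its share of Pgk1 plus Gm5537 was 24.1% to 27.8% in Lef1KI libraries and 21.9% to 26.2% in WT libraries, which overlapped (exact two-sided permutation test, p = 0.127). The 2 genes added gave a log2 difference of 0.15 (95% interval −0.38 to 0.68, limma adjusted p = 0.723). Ldha, Pkm, Aldoa, Tpi1 and Gpi1 have 11, 6, 3, 2 and 1 near-identical genes in GENCODE M21, none with a row in the table, and Hk1 and Hk2 have 0.

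Ldha, the muscle-type lactate dehydrogenase subunit, varied most among the 9 enzyme genes. The gene (chromosome 7 from 46841475 to 46855627 on the plus strand) stood at 476, 964, 1551, 608 and 1747 TPM in Lef1KI libraries A to E, against 1089, 525, 442 and 424 TPM in WT libraries A, B, D and E. The highest library held 4.12 times the TPM of the lowest. Lef1KI libraries C and E exceeded every WT library, and Lef1KI library A lay below WT libraries A and B, so the groups overlapped. Ldha averaged 1069 ± 563 TPM in Lef1KI cells (SD, n = 5) and 620 ± 315 TPM in WT cells (SD, n = 4), a log2 difference of 0.72 (SE 0.41, 95% interval −0.18 to 1.63, limma adjusted p = 0.305). Its spread within groups stood at the 97.9 percentile of all genes. The share of Ldha in Ldha plus Ldhb, the heart-type subunit, was 87.5% to 97.0% in Lef1KI libraries and 87.0% to 94.0% in WT libraries (exact two-sided permutation test, p = 0.349).

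**Figure D3:**
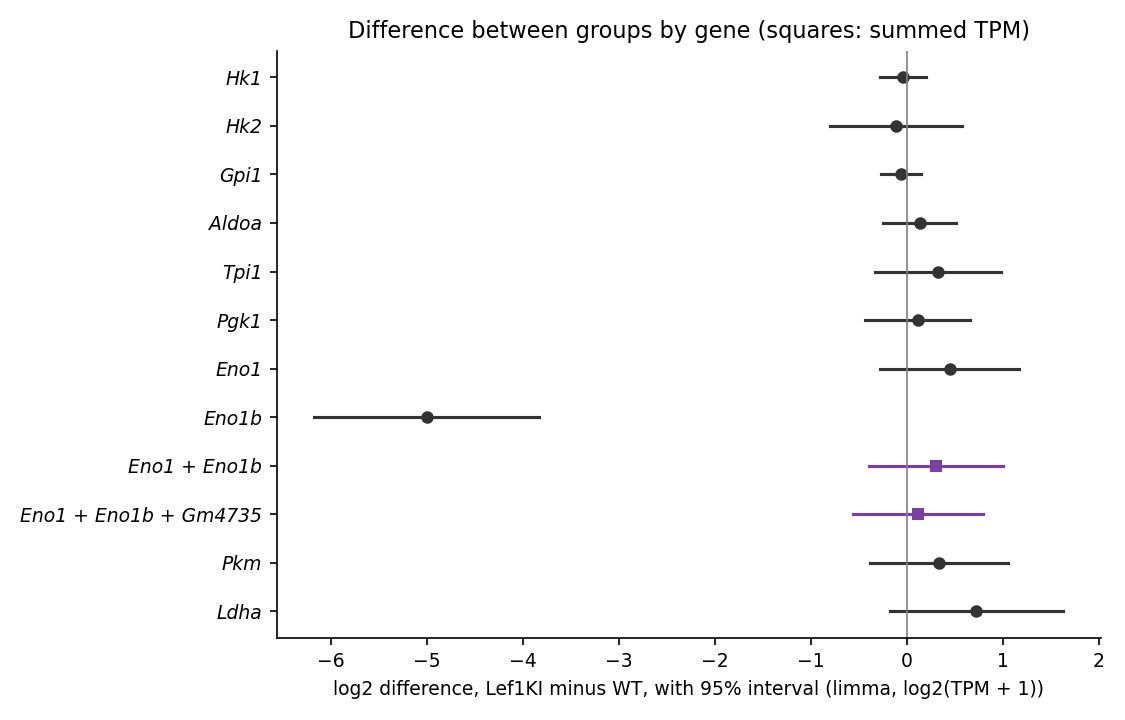
Log2 difference, Lef1KI minus WT, with its 95% interval from limma for each of the 10 genes and, as squares, for the summed enolase genes. The interval of Eno1b (−6.17 to −3.83) lies below 0, and all others include 0.

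The intervals show what size of difference these libraries leave possible. For Hk1 and Gpi1 they lay within 0.28 log2 units of 0. For Ldha the interval ran from −0.18 to 1.63, so neither no difference nor a large one could be told from these libraries. The residual SD of a gene within groups had a median of 0.263 log2 units over all genes, and Hk2, Tpi1, Eno1, Pkm and Ldha all stood at or above the 92.5 percentile.

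Most of the enzyme genes varied together between libraries, and within WT cells this rested mainly on library A. Ldha, Eno1, Tpi1, Pkm, Pgk1 and Aldoa were high together in Lef1KI libraries E, C and B and in WT library A, and low together in Lef1KI libraries A and D and in WT libraries B, D and E. Added up, these 6 genes came to 3700, 5490, 7479, 3756 and 8460 TPM in Lef1KI libraries A to E, against 6732, 4151, 3597 and 3580 TPM in WT libraries A, B, D and E. Each group thus held libraries of both kinds, and the 6 genes were grouped after their values were seen.

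All 36 pairs among the 9 enzyme genes without Eno1b were correlated over the 9 libraries, and 15 passed an exact permutation test after adjustment over the pairs. Those 15 were the pairs among the 6 genes, with Pearson correlations between 0.904 and 0.984 and Spearman correlations between 0.767 and 0.983. Ldha and Eno1 gave r = 0.970 (exact permutation p = 0.00022, adjusted 0.00074) and rho = 0.833 (exact permutation p = 0.00827, adjusted 0.0229), and r stayed at 0.934 without the 2 libraries farthest from the median of Eno1. Ldha and Pkm gave r = 0.969 (exact permutation p = 6.9e-05, adjusted 0.000463) and rho = 0.983, and r was 0.937 without the 2 farthest libraries. Without the 2 farthest libraries the lowest of the 15 was 0.855. WT library A was among those left out only for Pgk1 with Eno1, Pkm and Ldha, so the other pairs still held it. With each group's mean removed the lowest was 0.955, and with each library centred on its median it was 0.845. The points share 9 libraries, and median log2 values were highest in Lef1KI libraries C (3.97) and E (3.95) and lowest in WT library A (3.58). Such correlations were not particular to these genes. With all genes of the table ranked by correlation with Ldha, Tpi1 stood at 28, Eno1 at 52, Pkm at 55, Aldoa at 88 and Pgk1 at 455. Many other genes thus followed Ldha as closely.

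The remaining genes did not join this pattern. Gpi1 correlated with the 6 genes at 0.158 to 0.50 (exact permutation, adjusted p between 0.286 and 0.711), and Hk1 at −0.353 to −0.170 (adjusted p between 0.508 and 0.698). Hk2 ran the other way, at −0.700 to −0.540, without passing the test on Pearson correlations (exact permutation, adjusted p between 0.0878 and 0.225). On ranks it passed with Ldha (rho = −0.783, exact permutation, adjusted p = 0.0388) and with Tpi1 (rho = −0.80, adjusted p = 0.0332). WT library A and Lef1KI libraries C and E had the 3 lowest Hk2 values and the 3 highest Ldha values.

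**Figure D4:**
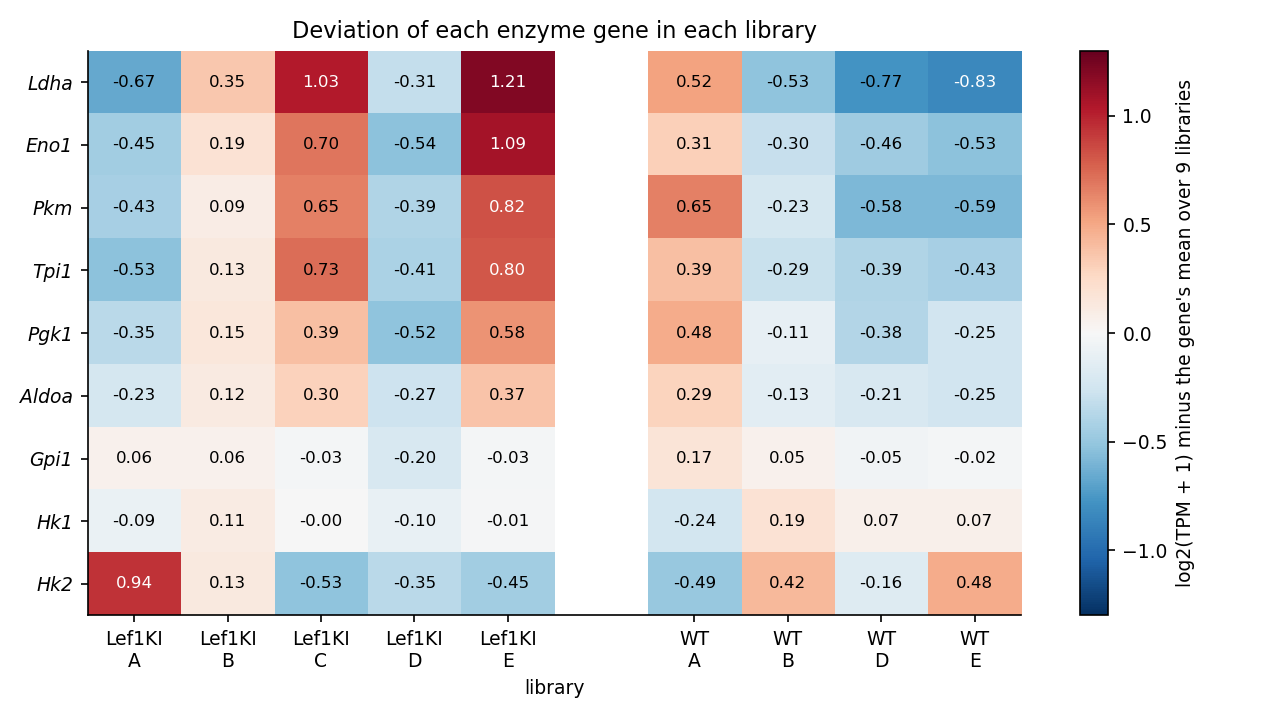
Deviation of log2(TPM + 1) from the gene's mean over the 9 libraries, genes in rows and libraries in columns, Lef1KI left of WT. Ldha, Eno1, Pkm, Tpi1, Pgk1 and Aldoa share their high libraries (Lef1KI B, C and E, WT A), while Gpi1 and Hk1 stay near 0 and Hk2 tends the other way.

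Few of the other glycolytic enzymes and isozymes passed the test between groups, and only some of them varied with Ldha. Of 22 listed, 12 have a row, 1 rose and 0 fell, against 6.73% and 1.24% of all genes. Their median difference was 0.10, against 0.14 over all genes. Gapdh, the triose phosphate dehydrogenase, stood at 2909, 3609, 3957, 2753 and 4424 TPM in Lef1KI libraries A to E, against 4585, 3238, 2719.75 and 2923 TPM in WT libraries A, B, D and E. It followed the same libraries as Ldha and the groups overlapped, with a log2 difference of 0.08 (limma adjusted p = 0.833). Over 11 genes set against Ldha, the correlation passed an exact permutation test for Pfkl (r = 0.920, adjusted p = 0.00696), Pgam1 (r = 0.911, adjusted p = 0.00696) and Gapdh (r = 0.891, adjusted p = 0.0098). These encode the liver-type phosphofructokinase, phosphoglycerate mutase and the dehydrogenase, and they kept r at 0.818, 0.728 and 0.870 without Lef1KI libraries C and E. Their rank correlations were 0.850, 0.817 and 0.783. With all genes of the table ranked by correlation with Ldha they stood at 327, 395 and 588, so many other genes followed Ldha as closely. Pdk1, a kinase that switches off pyruvate dehydrogenase, gave r = 0.838 (exact permutation, adjusted p = 0.0109; rho = 0.867), and 0.709 without those libraries.

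Pfkp, the platelet-type phosphofructokinase, gave r = 0.729 (exact permutation, adjusted p = 0.043), and 0.471 without Lef1KI libraries C and E. Pfkm, the muscle type, gave −0.773 (exact permutation, adjusted p = 0.0261), but −0.166 without those libraries, on which the relation rests. Vegfa, the angiogenic growth factor, gave −0.679 (exact permutation, adjusted p = 0.0776). Ldhb (0.098), Slc2a1 (0.125), Eno2 (0.331) and Eno3 (−0.183) did not pass either. None of Pfkl, Pfkm, Pfkp, Pgam1, Ldhb, Pdk1 and Vegfa passed the test between groups, with limma adjusted p between 0.215 (Pgam1) and 0.960 (Pfkp). Pgam1 passed it when Lef1KI library A was left out (0.59, limma adjusted p = 0.0376).

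The other enolases were scarce. Eno2, the neuronal enolase, rose, at 3.58 ± 0.805 TPM in Lef1KI cells (SD, n = 5) and 1.54 ± 0.901 TPM in WT cells (SD, n = 4), a log2 difference of 0.90 (SE 0.235, limma adjusted p = 0.0419). The groups overlapped, and the call was lost on leaving out any one of Lef1KI B, C, D or E or WT A, B or D, so that 2 of 9 such fits kept it, and it was also lost under both other scalings of the libraries (0.74 and 0.78). Eno3, the muscle enolase, averaged 2.05 ± 0.537 TPM in Lef1KI cells (SD, n = 5) and 3.53 ± 1.13 TPM in WT cells (SD, n = 4), with a log2 difference of −0.55 (limma adjusted p = 0.130).

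Glucose and lactate transport held 3 of the rises near the pathway. Of 16 regulators and transporters, 15 have a row, 3 rose and 0 fell, against 6.73% and 1.24% of all genes. Their median difference was −0.03. Slc2a3, the high-affinity glucose transporter of neurons, stood at 8.01, 8.53, 18.0, 6.63 and 12.1 TPM in Lef1KI libraries A to E, against 1.15, 0.50, 1.16 and 1.40 TPM in WT libraries A, B, D and E. Every Lef1KI library exceeded every WT library. The log2 difference was 2.45 (SE 0.265, 95% interval 1.86 to 3.03, limma adjusted p = 0.000656). Slc2a6, a glucose transporter of lysosomes, averaged 3.30 ± 1.3 TPM in Lef1KI cells (SD, n = 5) and 1.09 ± 0.109 TPM in WT cells (SD, n = 4), a log2 difference of 0.99 (limma adjusted p = 0.0132). Slc16a7, a carrier of lactate and pyruvate, had 0.69 (limma adjusted p = 0.0252), with the call lost without Lef1KI B or C or WT D or E and under both other scalings. Slc2a1, the common glucose transporter, was far more abundant than these, at 209.5 ± 32.4 TPM in Lef1KI cells (SD, n = 5) and 231 ± 11.1 TPM in WT cells (SD, n = 4), a log2 difference of −0.15 (limma adjusted p = 0.473). The fibroblast and stromal markers rose in the same libraries as Slc2a3, Slc2a6, Slc16a7, Eno2 and Pdk4, and their part in these rises was not tested.

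Branches of the pathway held few called genes. Of 15 genes of pyruvate dehydrogenase, its kinases and phosphatases and the pyruvate carriers, all have a row. Among them 1 rose, against 6.73% of all genes. That gene, Pdk4, another kinase of pyruvate dehydrogenase, averaged 6.95 ± 2.33 TPM in Lef1KI cells (SD, n = 5) and 2.54 ± 1.03 TPM in WT cells (SD, n = 4), a log2 difference of 1.16 (limma adjusted p = 0.0239). Its call was lost without Lef1KI C or D or WT A or E. None of 10 pentose phosphate genes and none of 11 measured genes of gluconeogenesis and glycogen passed the limma test, against 7.97% of all genes. Their median differences were 0.01 and 0.09. An unadjusted p under 0.05 was found in 3 of the 10 and 2 of the 11, against 23.8% of all genes. The list of 22 HIF-responsive genes outside glycolysis also held Hif1a, Hif3a, Epas1, Arnt and Vhl, which encode the factors themselves, a partner or a regulator. Of the 22 genes, 21 have a row, 0 rose and 1 fell, against 6.73% and 1.24% of all genes. An unadjusted p under 0.05 was found in 8, against 23.8% of all genes. The median difference of the list was 0.25, against 0.14 over all genes. The one that fell was Epas1, which encodes a hypoxia-inducible factor, at 23.3 ± 4.71 TPM in Lef1KI cells (SD, n = 5) and 34.7 ± 1.97 TPM in WT cells (SD, n = 4). Its log2 difference was −0.58 (limma adjusted p = 0.0419), and of the 9 fits with 1 library left out only those without Lef1KI A or without Lef1KI D kept the call.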

How the data were processed

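RNA was sequenced from 9 libraries of sorted cells (TruSeq stranded mRNA, per the labels' protocols). The authors deposited log2(TPM + 1) values, made with RSEM on mm10 per the submitters' processing notes; the sources used here give no versions, aligner, annotation or read length. As a check of the unit, 100.0% of values under 50 TPM were whole multiples of a hundredth of a TPM (tolerance 0.01 of a hundredth), and libraries summed to 99.6% to 99.84% of the total of all TPM. Depth is unknown, since TPM keeps no read counts, so the count model planned for a count table was not used and errors are the spread between libraries. The labels state RNA integrity numbers above the end of that scale. Columns carry letters that nothing ties to the labels' replicate numbers, so libraries were assigned to groups by name.

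TPM was recovered as 2 to the power of the deposited log2 value, less 1. The group difference was fitted with limma (version 3.58.1; R 4.3.3) and a variance prior that follows intensity, over all 9 libraries and 13336 genes, with Benjamini-Hochberg adjustment; the script was tested on simulated data. Summed genes replaced their rows before refitting. Shares and correlations had exact two-sided permutation tests (scipy 1.17.1). Near-identical genes were found with blastn 2.17.0 among GENCODE M21 transcripts. Libraries are pools of mice, and the p-values measure the spread between them. The members and lists were chosen with earlier results of these data known. Beside the 10 genes and their sum, the text names list members past the threshold (at most 6 a list), 11 pathway genes whatever their result, and the 5 named genes most like Eno1b; Gm4735, Gm5537, Krt and Lef1 values were added to check copies and labels. Alternatives were other pseudocounts, a 1 TPM filter, median centring, trimmed-mean scaling, limma without the trend, a replicate block and leaving out each library.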

Additional observations from a re-analysis of the deposited data

Results flagged for a closer look

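One group of 68 tested (34 genes in Lef1KI and in WT libraries) held a library far from the others, where chance gives about 1 in 20. It was Col6a3, a collagen of the fibroblast and stromal list, in WT cells: WT library D held 12.66 TPM and the nearest other WT library 7.62 TPM, a gap of 0.904 of the group's range, past Dixon's 95% critical value for 4 libraries.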

How the results depend on the processing

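Eno1b remained the one called gene of the 10 under every alternative run, at −5.72 to −4.69 when 1 library was left out, and the difference in its share lay between −12.0 and −7.52 points. Since Eno1b entered the table only through WT cells, where it is high, these fits are not independent of that filter either. The summed Eno1 and Eno1b stayed above 0 and uncalled (0.08 to 0.49 without 1 library, 0.14 with median centring, 0.13 with trimmed-mean scaling). Those scalings moved the median difference of all genes from 0.141 to −0.018 and 0, and the calls from 898 higher and 165 lower to 605 and 332, and to 684 and 291. Signs of uncalled values turned under them, with median centring for Aldoa (−0.025), Pgk1 (−0.045), Gapdh (−0.084), Ldhb (−0.015), the 3-gene enolase sum (−0.043) and Pgk1 plus Gm5537 (−0.009), and with trimmed-mean scaling for the same results (−0.038, −0.058, −0.097, −0.026, −0.056 and −0.022). Without 1 library the sign turned for Hk1 (−0.129 to 0.013), Hk2 (−0.362 to 0.026), Gapdh (−0.017 to 0.234), Pgk1 (−0.019 to 0.297), Pfkp (−0.064 to 0.063), Vegfa (−0.53 to 0.056) and the 3-gene sum (−0.106 to 0.299). The call of Slc16a7 was lost under both scalings (0.53 and 0.57). Pgam1 gained a call without Lef1KI A (0.59). With Gm4735 added after the data were seen, the sum gave 0.12. The cause of these changes was not tested.

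Columns with the same letter showed no common direction (correlations −0.259, 0.02, 0.258 and −0.148 for A, B, D and E). Of all pairings of a Lef1KI with a WT library, D with D was the highest and A with A the lowest. Whether a letter marks a shared batch or pairing cannot be told from so few values of mixed sign. A replicate block by letter gave 484 called genes in place of 1063, turned Hk2 (0.006) and the 3-gene sum (−0.009), and lost Eno2 (0.84), Pdk4 (1.11) and Epas1 (−0.54). No WT column carries the letter C, so Lef1KI C adds nothing to a difference in that fit. Leaving out Lef1KI C alone gave the same differences for these results and lost the same calls, with 757 genes called. These changes are thus not particular to pairing by letter. Without 1 library the count ran from 628 (without WT E; 643 without WT B) to 1686 (without Lef1KI A). Of 763 comparisons with an alternative 663 kept direction and side of the threshold. Depth per gene is unknown, so the counting error of values near 0 TPM could not be estimated.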

Other observations

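Other named copies were looked at after Eno1b had been seen: genes whose symbol ends in -ps or -rs and whose parent has a row, 49 in all. Of these 6 (12.2%) fell in Lef1KI cells and 1 rose, against 1.24% of all genes that fell. The 6 were Vcp-rs, Rbpsuh-rs3, Rpl3-ps1, Pcna-ps2, Mrpl48-ps and Tgif2-ps2, and of their parents Vcp and Rpl3 passed the limma test, both higher in Lef1KI cells. Vcp-rs, a processed pseudogene on the X chromosome, averaged 0.118 ± 0.125 TPM in Lef1KI cells (SD, n = 5) and 41.9 ± 26.5 TPM in WT cells (SD, n = 4), a log2 difference of −4.97. Its parent Vcp, an ATPase of protein quality control, had 0.63 (limma adjusted p = 0.0289). The authors' filter keeps a gene that is steady in 1 group alone, so a copy present in WT cells and near 0 in Lef1KI cells could enter the table through WT cells, and these counts describe the table only.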
